A study of Mus musculus with 27 samples.

Results

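The regions described here carried H3K4me3 in every library and lay away from the annotated ends of protein-coding genes. H3K4me3, trimethylation of lysine 4 on histone H3, is the mark of active transcription start sites. Peaks of the 5 H3K4me3 lists on the autosomes were joined where they overlapped or touched, which gave 38292 regions. A region was kept if every one of the 5 libraries had a peak in it (at least 1 bp), if it was under 3 kb wide, and if it lay 5 kb or more from both ends of every protein-coding gene in RefSeq's annotation of GRCm38.p6, the build also called mm10. The rule kept 7037 of the 38292 regions, and these are called distal H3K4me3 regions below. The regions were chosen by the presence of H3K4me3 peaks, so values of that mark are given as a description, with no test. Shared regions under 3 kb wide and within 1 kb of a gene end, 13099 in number, are set beside them as gene-end regions.

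All libraries came from B220+ cells, that is, cells with the B cell form of CD45 on their surface, of the VavP-Bcl2 mouse lymphoma model, in which Bcl2, a gene that blocks apoptosis, is expressed in blood cells from the Vav promoter. Every group carries this transgene. For the RNA-seq and ChIP-seq libraries, fetal-liver stem cells with the transgene received either an empty vector or MSCV-SHMT2, a retrovirus carrying the mitochondrial serine hydroxymethyltransferase SHMT2, and were transplanted into irradiated wild-type mice, whose spleens gave the B220+ cells. Labels of the methylation libraries name only the cells, the model and the vector. H3K4me3 was profiled in 2 vector and 3 SHMT2 libraries, H3K4me1 in 2 and 2, and both RNA and methylation in 3 and 3. Methylation was read by enhanced reduced representation bisulfite sequencing (ERRBS), which covers CpG-rich DNA. The labels do not state whether libraries within a group are from different mice. Any p-value therefore measures only how these samples vary, which may be technical variation.

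The H3K4me3 lists held 33313 to 38249 peaks and the H3K4me1 lists 33119 to 52056. The ERRBS tables held 1330340 to 1424115 cytosines per library, at a mean coverage of 63.0 to 71.6 calls. RNA-seq depth is unknown, since only TPM, values scaled for transcript length and library total, were deposited. All 10 listed B cell markers stood at 1 TPM or more in all 6 RNA libraries. The mean log2(TPM + 1) of 9 erythroid markers ranged from 1.99 to 6.29 in vector and from 1.88 to 2.81 in SHMT2 libraries, with 2 of the 9 listed at 0 throughout. That of 9 myeloid markers ranged from 3.604 to 5.48 in vector and from 3.66 to 4.05 in SHMT2. For the 6 T cell markers found, of 7 listed, the mean ranged from 2.83 to 3.24 in vector and from 2.92 to 3.72 in SHMT2.

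In mammals, H3K4me3 is deposited around active start sites, most strongly at CpG-rich ones, where the DNA is as a rule unmethylated. H3K4me1 flanks these sites and marks enhancers, where H3K4me3 is usually weak. A marked region far from any protein-coding gene end can therefore be a start inside a gene, the start of a non-coding RNA, an enhancer or a repeat. Which of these names belongs to a region cannot be read from H3K4me3 alone.

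The windows printed here are those on which the comparison of starts turns. Each runs from 250 bases before to 50 bases after a start listed by RefSeq (GRCm38.p6), is 300 bases long and is written 5′ to 3′ on the gene's strand, with every CpG in capitals. The first is the internal start of Tpst1, a protein tyrosine sulfotransferase, on the plus strand at chr5:130079120-130079419. It has 19 CpGs and lies within 500 bp of a distal H3K4me3 region.
Tpst1 internal: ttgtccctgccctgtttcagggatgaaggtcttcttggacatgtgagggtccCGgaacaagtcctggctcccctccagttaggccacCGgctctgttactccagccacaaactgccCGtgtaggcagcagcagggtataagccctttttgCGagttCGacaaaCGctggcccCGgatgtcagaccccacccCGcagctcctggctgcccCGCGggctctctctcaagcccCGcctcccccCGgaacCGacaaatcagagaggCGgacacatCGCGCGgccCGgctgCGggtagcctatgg
The outermost listed start of Tpst1, at chr5:130073076-130073375 on the plus strand, has 4 CpGs and no H3K4me3 peak within 1 kb in any library.
Tpst1 outer: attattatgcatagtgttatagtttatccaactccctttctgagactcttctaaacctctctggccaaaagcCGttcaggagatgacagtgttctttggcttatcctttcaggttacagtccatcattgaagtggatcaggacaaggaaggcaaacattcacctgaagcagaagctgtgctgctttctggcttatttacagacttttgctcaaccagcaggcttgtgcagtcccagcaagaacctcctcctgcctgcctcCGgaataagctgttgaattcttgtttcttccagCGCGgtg
The internal start of Runx3, a transcription factor of lymphocytes, at chr4:135152295-135152594 on the plus strand, has 45 CpGs.
Runx3 internal: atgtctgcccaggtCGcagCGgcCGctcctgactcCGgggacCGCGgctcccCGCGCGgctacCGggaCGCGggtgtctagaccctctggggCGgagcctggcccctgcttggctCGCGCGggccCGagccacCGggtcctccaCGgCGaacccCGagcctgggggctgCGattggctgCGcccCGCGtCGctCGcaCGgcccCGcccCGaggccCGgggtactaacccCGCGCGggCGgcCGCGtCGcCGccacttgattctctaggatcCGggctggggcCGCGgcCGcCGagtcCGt
The outer start of Runx3, at chr4:135120395-135120694 on the plus strand, has 8 CpGs and no peak within 1 kb.
Runx3 outer: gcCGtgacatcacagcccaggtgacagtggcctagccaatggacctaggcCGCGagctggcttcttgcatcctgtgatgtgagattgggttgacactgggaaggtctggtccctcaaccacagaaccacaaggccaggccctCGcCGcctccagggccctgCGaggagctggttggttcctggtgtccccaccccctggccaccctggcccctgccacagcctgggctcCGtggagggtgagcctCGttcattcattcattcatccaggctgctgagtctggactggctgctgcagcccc
The single listed start of Cep70, a centrosomal protein, at chr9:99243091-99243390 on the plus strand, has 25 CpGs.
Cep70: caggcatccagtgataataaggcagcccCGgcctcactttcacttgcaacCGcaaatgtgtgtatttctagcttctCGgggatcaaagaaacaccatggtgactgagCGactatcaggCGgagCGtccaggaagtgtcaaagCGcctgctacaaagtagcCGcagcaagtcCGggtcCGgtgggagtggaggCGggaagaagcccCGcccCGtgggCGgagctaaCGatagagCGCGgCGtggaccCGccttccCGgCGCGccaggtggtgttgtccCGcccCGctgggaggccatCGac
The internal start of Ssh2, a cofilin phosphatase, at chr11:77348030-77348329 on the plus strand, has 30 CpGs.
Ssh2 internal: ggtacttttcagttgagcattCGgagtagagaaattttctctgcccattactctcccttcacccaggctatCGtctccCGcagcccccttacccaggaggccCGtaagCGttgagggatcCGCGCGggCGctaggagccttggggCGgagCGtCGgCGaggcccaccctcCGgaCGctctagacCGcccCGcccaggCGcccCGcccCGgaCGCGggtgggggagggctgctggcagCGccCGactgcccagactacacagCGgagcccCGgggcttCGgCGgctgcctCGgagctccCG
The start of the non-coding RNA Rab10os, at chr12:3235541-3235840 on the plus strand, has 39 CpGs and is shown because the region there had the smallest p for a methylation difference between the groups.
Rab10os: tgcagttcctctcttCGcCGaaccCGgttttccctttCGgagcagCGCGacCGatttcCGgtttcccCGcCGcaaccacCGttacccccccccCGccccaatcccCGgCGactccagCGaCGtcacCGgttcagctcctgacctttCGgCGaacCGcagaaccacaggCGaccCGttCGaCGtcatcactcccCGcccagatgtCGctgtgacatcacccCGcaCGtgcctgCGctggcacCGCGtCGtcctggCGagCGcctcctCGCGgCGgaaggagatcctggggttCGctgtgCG
The start of Mir22hg, the host transcript of miR-22, at chr11:75461289-75461588 on the plus strand, has 12 CpGs and is shown because its transcript level separated the groups.
Mir22hg: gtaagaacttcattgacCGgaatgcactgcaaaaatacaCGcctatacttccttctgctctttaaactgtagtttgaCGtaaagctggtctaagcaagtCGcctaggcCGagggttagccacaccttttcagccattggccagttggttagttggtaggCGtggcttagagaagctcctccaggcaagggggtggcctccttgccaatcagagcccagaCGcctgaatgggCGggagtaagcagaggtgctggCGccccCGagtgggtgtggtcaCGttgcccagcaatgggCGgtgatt

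Of the 7037 distal H3K4me3 regions, 3773 (53.6%) lay inside a protein-coding gene and 3264 (46.4%) between genes. A start of a protein-coding gene was listed within 500 bp of 666 (9.46%), all of them inside genes. A further 410 had a listed lncRNA start and 501 only the end of another annotated non-coding gene or pseudogene. The remaining 5460 (77.6%) had no start listed. The list of starts is not complete, since it holds 79.6% of protein-coding genes and 74.9% of lncRNAs, so the last class is a class without a listed start, not without a start. Median width was 986 bp, with quartiles of 725 and 1352 bp.

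The regions inside genes were spread over 2136 genes. Most of these genes, 1284, held 1 region, and 104 held 5 or more. Hivep2, a zinc finger protein, held 12. Gse1 held 11 and the phosphodiesterase Pde4d held 10. Ebf1, the early B cell factor, and Foxp1, a forkhead factor of B cells, held 9 each. Neighbouring regions are not independent of each other, as 1262 (17.9%) had another distal region within 1 kb.

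Sharing was the commonest outcome away from gene ends. Of the 16353 regions under 3 kb and 5 kb or more from gene ends in any library, 4189 (25.6%) had a peak in 1 library, 1588 (9.71%) in 4 and 7037 (43.0%) in all 5. Regions that missed the rule by 1 library were weaker, as follows from the rule. Their strength stood at a median percentile of 21.4, their median methylation level was 8.58% and 64.2% overlapped H3K4me1 in all 4 libraries. Just inside and just outside the distance limit, at 5 to 6 kb and at 4 to 5 kb from a gene end, the median percentile was 48.1 and 49.5. Across the width limit it was 69.6 at 2.5 to 3 kb and 72.1 at 3 to 3.5 kb.

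Strength is given as the percentile of a peak's fold enrichment, the authors' own value, within that library's whole list, and as the median of the 5 libraries for a region. Distal regions had a median percentile of 44.5, against 76.0 for gene-end regions. Within single libraries the median of the distal regions ran from 39.95 to 52.3 and that of the gene-end regions from 73.4 to 77.5. The lists differ in length, so a shift in percentile between libraries cannot be read as a change. Strength was ordered by annotation. Regions at a coding start had a median percentile of 67.8, at an lncRNA start 57.6, at another annotated end 52.5 and at no listed start 41.8.

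**Figure D1:**
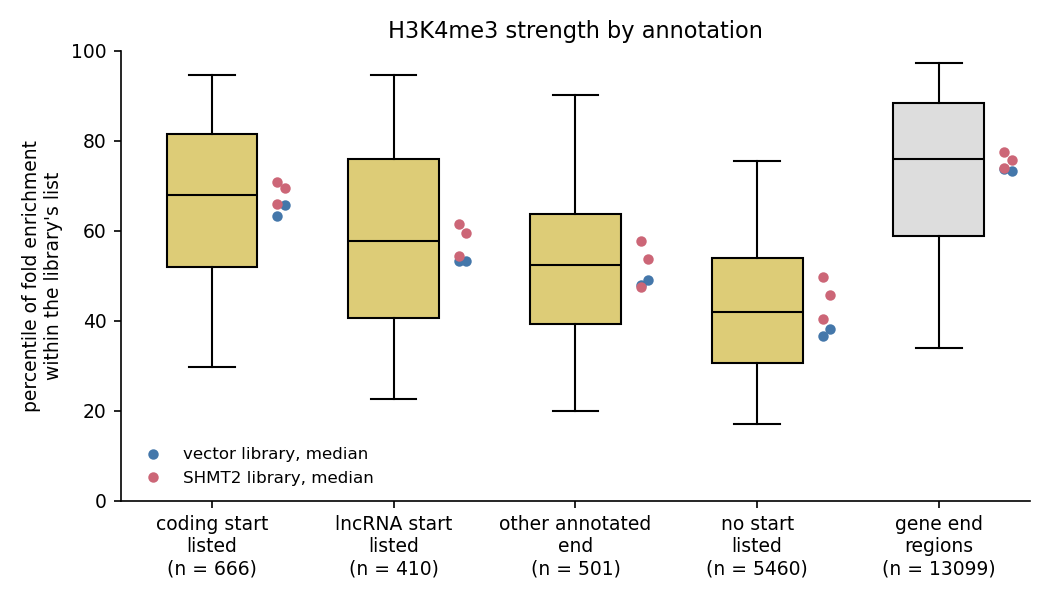
H3K4me3 strength of the 7037 distal regions in 4 annotation classes and of 13099 gene-end regions. The y axis is the percentile of fold enrichment within a library's list. Boxes show the median and quartiles over regions of the median of 5 libraries, and whiskers the 5th and 95th percentiles. Points are the medians in each library. Regions at coding starts (median 67.8) lay nearest to the gene-end regions (76.0), and regions with no listed start were lowest (41.8).

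The 8 strongest distal regions inside genes, ranked by their lowest percentile over the 5 libraries, were mostly at internal coding starts. At Ssh2 (chr11:77348241-77350101) the percentiles were 99.4 and 98.2 in vector and 99.9, 100.0 and 99.3 in SHMT2 libraries. At Cep70 (chr9:99242297-99244485) they were 96.6 and 97.7 in vector and 96.9, 98.4 and 97.0 in SHMT2. Both regions were thus near the top of every list. The others of the 8 strongest inside genes were at Tmem9, Slc12a9, the zinc finger gene Zfp458, Cnot8, a subunit of the CCR4-NOT deadenylase, Atp2c1, a Golgi calcium pump, and Haus1, a subunit of augmin. All 8 except the one in Haus1 had a coding start listed within 500 bp, and the one in Haus1 held the end of the lncRNA Gm52331.

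Between genes, the 8 strongest regions were led by non-coding RNA genes. The region at the start of 2210406O10Rik (chr5:36465099-36466292) had percentiles of 99.8 and 98.9 in vector and of 99.7, 99.8 and 99.1 in SHMT2. Transfer RNA genes lay at 4 of the 8, among them the isoleucine tRNA gene n-TIaat17 at chr17:83861181-83863385 (lowest percentile 97.7) and a pair for lysine and proline at chr17:23546253-23547759 (lowest 93.9). The lncRNAs BC002059 and 1300002E11Rik lay at another pair. The remaining one, at chr7:73618598-73619617 and 76852 bp from Chd2, a chromatin remodeller, had no start listed and no annotated end.

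Transfer RNA genes are transcribed by RNA polymerase III, and 77 distal regions held the end of one. They were strong and wide, with a median percentile of 73.6 and a median width of 1520 bp. Of the 47 covered by ERRBS, the median methylation level was 0.707% and the highest 31.4%. H3K4me1 lay on 38 of the 77 (49.4%) in all 4 libraries. The 49 regions at 5S ribosomal RNA genes all lay in the 5S cluster at chr8:123542471-123623817, and all 49 overlapped H3K4me1 in all 4 libraries. These genes are near-identical copies, so reads cannot be placed among them with certainty and the single values are uncertain.

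MicroRNA genes were few. Of 919 hairpins listed on the autosomes, 15 overlapped a distal region, in 12 regions. The regions at Mir9-1 (chr3:88214441-88216574) and Mir9-2 (chr13:83737945-83740036) hold copies of the same microRNA, miR-9, best known from the nervous system. Their median percentiles were 76.8 and 74.7, and their methylation levels 5.21% and 7.44%. The region at Mirlet7i, of the let-7 family (chr10:122984004-122985813), had a percentile of 68.4 and a level of 0.175%, and that at Mir148a (chr6:51269561-51270753) a percentile of 61.1 and a level of 0.933%. H3K4me1 lay on all 4 of these regions in every library. The mature sequences are given with the seed, bases 2 to 8, in capitals. miR-9 from both copies shares 1 seed, and the other seeds differ from it and from each other.
miR-9-5p: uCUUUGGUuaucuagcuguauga
let-7i-5p: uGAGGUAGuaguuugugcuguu
miR-148a-3p: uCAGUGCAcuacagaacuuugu

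H3K4me1 overlapped most distal regions. In all 4 libraries a peak lay on 4965 (70.6%), and 300 (4.26%) had none in any library. The same shares for gene-end regions were 68.6% and 4.68%. These pooled shares hide differences at like H3K4me3 strength. At percentiles of 0 to 20, overlap in all 4 libraries was 76.2% for distal and 47.3% for gene-end regions. At 20 to 40 it was 71.2% and 44.0%, and at 80 to 100 it was 72.7% and 82.9%. Per library, 74.0% and 81.9% of the distal regions had a peak in vector and 93.4% and 93.8% in SHMT2, beside 73.3% and 80.6%, and 92.8% and 93.6%, for gene-end regions. Both SHMT2 lists are longer, with 48993 and 52056 peaks against 33119 and 37274, so list length and group cannot be told apart in these shares. The groups were not tested against each other for this mark. Overlap in all 4 libraries was commoner inside genes (75.8%) than between them (64.5%), and lowest at other annotated ends (53.3%).

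Pooled over all strengths, the share of a region that H3K4me1 covered differed more between distal and gene-end regions than the overlap did. Averaged over the 4 libraries, H3K4me1 peaks covered a median of 86.0% of a distal region and 57.1% of a gene-end region. Peaks covered at least 50% of the region in all 4 libraries in 54.1% of distal and 26.2% of gene-end regions. H3K4me1 peaks were mostly weak, and where only those with a −log10 q of at least 5 were kept, the share with H3K4me1 in all 4 libraries fell from 70.6% to 7.66% for distal and to 3.69% for gene-end regions. Cover fell as H3K4me3 rose: the median was 100% at percentiles of 0 to 20 and 55.5% at 80 to 100, where gene-end regions stood at 53.8%. Over the 7037 regions Spearman's rho between the percentile and the cover was −0.28, as a description; the points share libraries and regions differ in width.

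ERRBS reached 2247 of the 7037 regions (31.9%) with at least 3 cytosines at a coverage of 10 or more in all 6 libraries. The other 4790 had fewer and are not measured, so what follows holds for the covered minority. A methylation level is the percent of calls read as methylated over all CpG cytosines of a region, averaged over 6 libraries. The median level was 1.92%, with quartiles of 0.427% and 9.56%. Of the 2247 regions, 1703 (75.8%) stood under 10%, 450 (20.03%) between 10% and 50%, and 94 (4.18%) at 50% or more.

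Distal regions were more methylated than gene-end regions in each of the 6 ERRBS libraries. The median level ran from 1.69% to 1.94% over libraries for distal and from 0.316% to 0.386% for gene-end regions, a mean difference of 1.45 points ± 0.109 (SD, n = 6). A two-sided exact permutation test that flips the sign within libraries gave p = 0.03125, the smallest that 6 libraries allow and the same after adjustment over 3 such comparisons. Regions between genes (2.10% to 2.65%) stood above those inside genes (1.361% to 1.59%) in 6 of 6 libraries, with the same p of this exact test. Regions with no start listed (2.95% to 3.58%) stood above those at coding starts (0.470% to 0.538%) in 6 of 6, again at the same exact p. All regions at coding starts lay inside genes, where they made up 492 of the 1325 covered regions. Their part in the difference between regions inside genes and between them was not tested. The libraries read the same regions, so this test speaks to their reading and not to a wider set of regions.

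Strong H3K4me3 and low methylation went together among the distal regions. In steps of 20 percentiles, from the weakest to the strongest, the median level was 12.3%, 8.66%, 3.88%, 0.756% and 0.383%, over 58, 429, 736, 630 and 394 covered regions. Gene-end regions in the same steps had lower medians, at 5.84%, 3.15%, 1.03%, 0.336% and 0.285%. Spearman's rho between percentile and level was −0.53 over the 2247 regions, as a description of points that share libraries. Coverage by ERRBS itself rose from 11.98% to 78.6% of the regions along the same scale, and the share at a coding start from 2.48% to 36.1%.

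**Figure D2:**
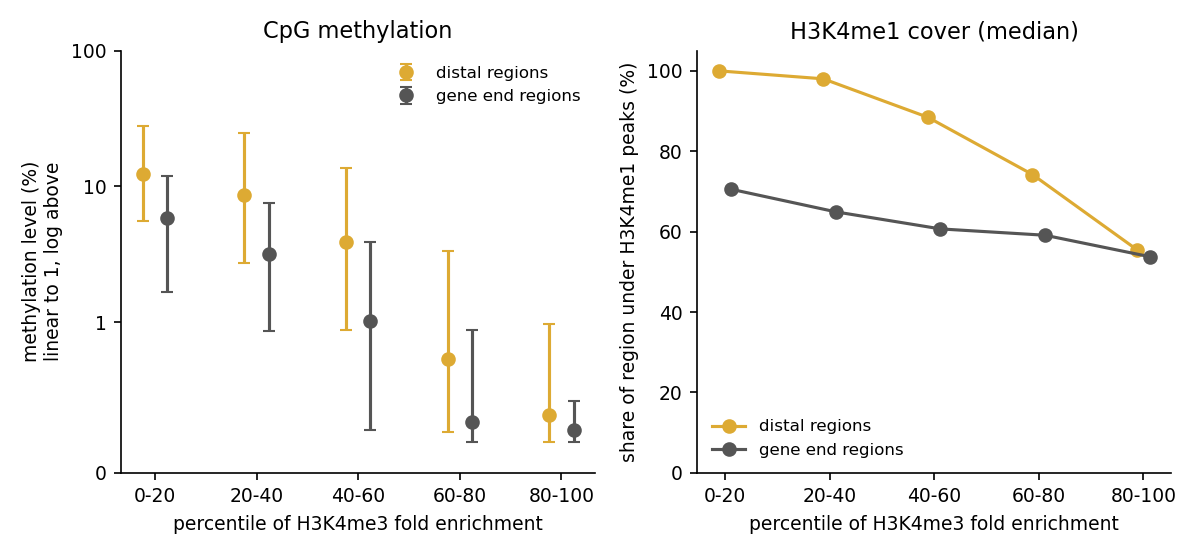
Methylation and H3K4me1 cover against H3K4me3 strength, in steps of 20 percentiles on the x axis. On the left, points are median levels over regions and bars the quartiles, on an axis that is linear up to 1% and logarithmic above. On the right, points are the median share of a region under H3K4me1 peaks. The level of distal regions fell from 12.3% to 0.383%, and their cover from 100% to 55.5%, where gene-end regions stood at 53.8%.

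Of the covered regions, 11 were read as fully unmethylated, and the 4 named here are taken from these ties. Every call was unmethylated in all 6 libraries at Mllt10 (chr2:18063470-18064320, 11 cytosines, at least 160 calls per library), a transcriptional regulator whose internal start is listed there, and at the asparagine tRNA gene n-TNgtt14 (chr5:149229207-149229678, 7 cytosines, at least 629 calls). The same held in Stag1, a cohesin subunit, and in Urgcp. At the other end, 4 regions stood above 96%: one inside Zfp697 (chr3:98410874-98411436, 96.3%) and others at chr5:109906405-109907376 (96.9%), chr12:20699318-20700497 (96.6%) and chr8:43318793-43320062 (96.3%). Of these 4, 3 had no H3K4me1 peak in any library and the region in Zfp697 had one in 1 library. Their H3K4me3 was below the middle of the lists, with median percentiles of 30.2 to 39.6.

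High methylation was more frequent among regions with little H3K4me1, though 41 of the 94 regions at 50% or more had H3K4me1 in all 4 libraries. With no H3K4me1 peak in any library, 26 of 90 covered regions (28.9%, exact 95% interval 19.8% to 39.4%) stood at 50% or more. With a peak in 1 library it was 11 of 78 (14.1%, 7.26% to 23.8%). With a peak in 2 libraries it was 7 of 250 (2.80%) and in 3 libraries 9 of 342 (2.63%). With a peak in all 4 libraries it was 41 of 1487 (2.76%, 1.99% to 3.72%). Intervals cover counting error only. The regions without H3K4me1 were of a mixed kind, since their median level was as low as 0.752% while their upper quartile was 60.01%. They were also narrower, with a median width of 598.5 bp against 1085 bp. Pseudogenes were common here: of 144 regions at the end of a pseudogene, 54 (37.5%) had no H3K4me1, and 8 of the 36 covered stood at 50% or more. Pseudogenes are copies of other genes, so the placing of their reads is uncertain, and its part in these values was not tested.

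**Figure D3:**
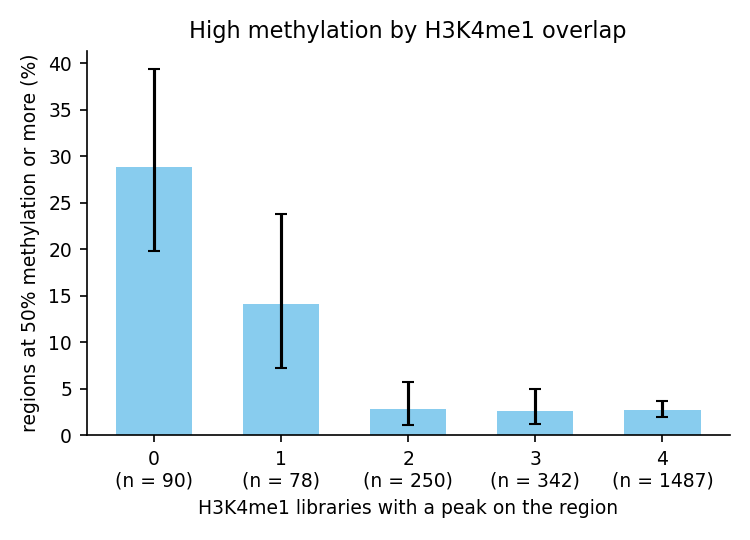
Share of distal H3K4me3 regions at a methylation level of 50% or more, on the y axis, by the number of H3K4me1 libraries with a peak on the region, on the x axis. Bars are shares of the covered regions and error bars exact 95% binomial intervals. The share was 28.9% with no H3K4me1 peak and 2.76% with a peak in all 4 libraries.

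The 666 regions at listed coding starts belonged to 489 genes, 165 of which have 1 start in the list. For each gene the outermost 5′ end of the annotated span (within 1 kb) was compared with its strongest distal region. In 247 genes (50.5%) the outer end carried H3K4me3 in all 5 libraries as well, and in 218 (44.6%) no library had a peak within 1 kb of it. Genes with a marked outer end had a median expression of 31.1 TPM and those without a peak there 9.52 TPM, given with no test. Where both ends were marked, the outer end had the higher percentile in 145 of the 247 genes.

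Outer ends without a peak had a higher median methylation level than marked ones. In 43 genes without a peak at the outer end and with both places covered, the median level was 0.782% at the distal region and 42.6% around the outer end, and the distal region was lower in 40 of them (93.0%). In 20 of the 43 the outer end stood at 50% or more. In the 147 genes with a marked outer end the medians were 0.474% and 0.444%, and the distal region was lower in 73.

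At Tpst1 the internal region (chr5:130079638-130080918) stood at 0.138%, 0.274% and 0.382% in vector and 0.335%, 0.519% and 0.545% in SHMT2 libraries, over 31 cytosines. The 4 cytosines around its outer end stood at 96.5%, 93.0% and 87.5% in vector and 100%, 98.7% and 95.9% in SHMT2. In every library the internal end was nearly unmethylated and the outer end highly methylated. Kctd7, a potassium channel domain protein, had 2.48% at its region (chr5:130143794-130145772) and 94.8% over 4 cytosines at its outer end. Prkag2, a regulatory subunit of AMP-activated kinase, had 0.655% (chr5:24907476-24908476) and 86.3% over 4, and Itprid2 had 0.232% (chr2:79635499-79636688) and 81.8% over 3. These high levels at outer ends thus rest on few cytosines.

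Cep70 was the most abundant named gene of this kind. Vector libraries had 188, 378 and 267 TPM, and SHMT2 libraries 185, 235 and 199 TPM. Its region stood at 1.77% over 44 cytosines, and its outer end, 59.8 kb away, at 44.6% over 3. Other outer ends without a peak, covered by more cytosines, were less methylated. The level was 1.42% over 142 cytosines at Gse1, 3.27% over 178 at Arhgef7, a Rac exchange factor, and 4.77% over 70 at Dlgap4. It was 9.27% over 97 at Ccdc174, 5.27% over 56 at Prr5, 2.44% over 22 at Tmem14a and 27.3% over 34 at Crybg1. Runx3 has no value for its unmarked outer end, which ERRBS did not cover. Its internal region (chr4:135152920-135155629) stood at 9.02%, 9.44% and 10.6% in vector and at 4.27%, 3.62% and 9.45% in SHMT2, where SHMT2 replicate 3 fell within the vector range.

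**Figure D4:**
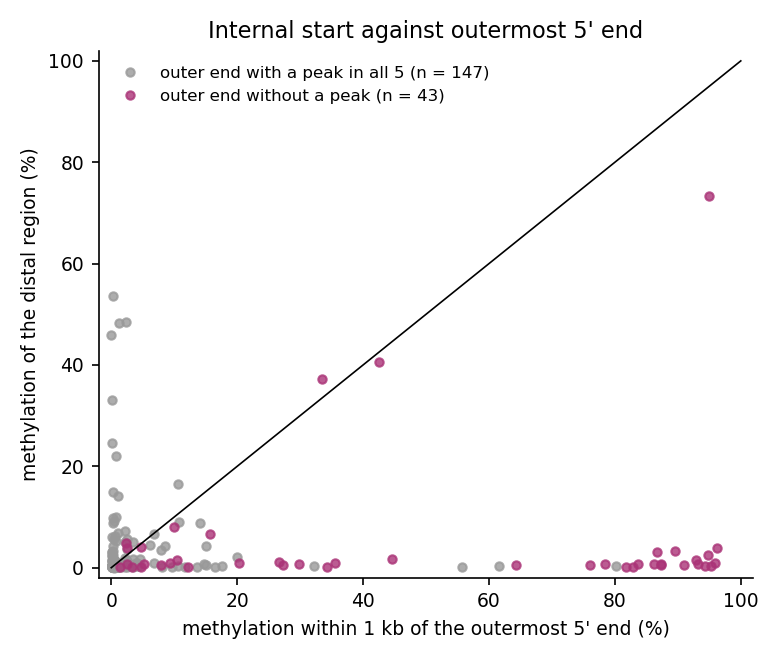
Methylation of a distal H3K4me3 region at a listed coding start, on the y axis, against methylation within 1 kb of the same gene's outermost 5′ end, on the x axis, both in percent. Each point is 1 gene, with the mean of 6 libraries, and the line marks equal levels. In 40 of the 43 genes without a peak at the outer end the point lies below the line, and 20 of them have an outer end at 50% or more.

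Among genes with both ends marked, Ssh2 stood at 0.155% at its internal region and 0.147% at its outer end, 132.1 kb upstream, with percentiles of 99.4 and 89.2. Ppp2r5c, a regulatory subunit of protein phosphatase 2A, had percentiles of 98.7 and 94.0. At Atp2c1 the internal start was the stronger one, at 98.7 against 57.5, and at Triobp, an actin-binding protein, 98.4 against 52.5. The region at Atp2c1 (chr9:105495164-105496198) had no H3K4me1 peak and also holds the start of the lncRNA Gm40564.

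Sequence at the starts differed by class. Among 612 listed windows of protein-coding genes at distal regions the median CpG count in 300 bases was 18, among 526 lncRNA windows 9, among 10172 windows at gene-end regions 23, and among 17635 windows without a peak in any library 3. The hexamer GGGCGG, the core of the SP family's GC box, was found on either strand in 61.4% of the coding windows at distal regions, 36.9% of the lncRNA windows, 68.4% of those at gene-end regions and 36.0% of all 31396 windows. It was present in the windows printed above for Runx3 internal, Cep70, Ssh2, Rab10os and Mir22hg, and in neither Tpst1 window. The ETS core CCGGAAG was found in 9.48% of the coding windows at distal regions, in 20.7% at gene-end regions and in 9.004% of all. TATAAA was found in 5.72%, 6.01% and 13.6%, and CCAAT in 33.0%, 38.2% and 37.3%. The palindrome TGACGTCA, the cyclic AMP response element, was found in 2.12%, 3.66% and 1.83%. GGGCGG and CCGGAAG hold CpGs themselves, so their shares move with CpG count.

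CpG count also ordered the regions. At coding starts with at most 4 CpGs in the richest window, 46 regions had a median percentile of 50.5 and H3K4me1 over 100.0% of their length (median). At 25 or more CpGs, 185 regions had a median percentile of 75.7, H3K4me1 over 58.8% and a median methylation level of 0.328%.

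The summit of H3K4me3 lay downstream of the listed start in most cases. Over the 666 regions at coding starts the median offset was 171.5 bp in the direction of transcription, and the summit was downstream in 434 (65.2%). Over the 410 at lncRNA starts it was 174.5 bp, and downstream in 293 (71.5%).

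Regions at B cell genes were counted over lists of genes. Of 25 transcription factors of the B lineage, 22 held or were the nearest gene to a distal region, with 108 regions in all, 50 of them inside the gene. H3K4me1 lay in all 4 libraries on 90 of the 108 (83.3%), beside 70.6% of all distal regions. Their median percentile was 36.2, beside 44.5, and 6 were at a listed coding start. Mef2c, a factor of B cell proliferation, had 19 regions, Ets1 had 15, Ebf1 had 10 and Foxp1 had 9. Of the 108, 33 were covered by ERRBS, with a median methylation level of 5.15%, beside 1.92% for all distal regions. Their range was 0.0940% to 59.3%, and 10 of them stood above 10%. By strength, distal regions had a median level of 8.66% at percentiles of 20 to 40 and of 3.88% at 40 to 60. The part of strength in the level of this list was not tested. These counts grow with the length of a gene and its surroundings, and 2136 genes hold a distal region.

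The strongest was in Spi1, which encodes the factor PU.1 (chr2:91096174-91098791), with percentiles of 97.9 and 97.3 in vector and 94.3, 92.9 and 97.2 in SHMT2 and a methylation level of 1.29%. No start is listed there. In Ets1 a region at chr9:32695013-32695910 had a median percentile of 89.8 and a level of 0.0940%, the lowest of the list. The internal starts of Runx3 and Foxp1 (chr6:99026685-99028233, level 0.478%) had median percentiles of 89.9 and 84.4. The region nearest to Lef1, a T cell and early B cell factor, lay 90103 bp from it, had a percentile of 79.7, and H3K4me1 in 3 of 4 libraries.

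Of 28 genes of B cell receptor signalling, 17 had 42 distal regions, and 39 of these (92.9%) overlapped H3K4me1 in all 4 libraries. They were weaker, with a median percentile of 31.4, and 1 of them, in Dock10, was at a listed coding start. Vav2 and Swap70, a signalling adaptor of B cells, had 5 regions each. Of 24 lymphoma genes, 17 had 53 regions, 45 with H3K4me1 in all 4 libraries. Here the strongest was the internal start of Dnmt3a, the de novo DNA methyltransferase (chr12:3890680-3891658), with percentiles of 91.7 and 88.9 in vector and 91.5, 92.7 and 86.7 in SHMT2. It had no H3K4me1 peak in any library and a methylation level of 0.537%. Sesn1, a stress-induced inhibitor of mTORC1, had a region at an internal start (chr10:41887522-41890121, percentile 80.7, level 2.26%), and Pim1, a survival kinase, was nearest to one at the start of the lncRNA Gm36486 (chr17:29436449-29437457, 82.7 and 1.12%).

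SHMT2 was compared with vector for DNA methylation, since the carbon units that this enzyme makes from serine can feed the methyl donor. The test is a binomial model per region with a dispersion moderated across regions, and a region is called where the Benjamini-Hochberg adjusted p is under 0.05 and the groups differ by 10 points or more. It called 0 of the 2236 distal regions tested and 0 of all 17733 H3K4me3 regions tested (0%). The smallest adjusted p was 0.554. Fisher's exact test on calls pooled over libraries, which leaves the spread between libraries out, called 145 of 2247 distal regions, 58 higher and 87 lower. Over all regions it called 490 of 17829 (2.75%), a smaller share. At an unadjusted p under 0.05 there were 181 distal regions (8.09%), 94 higher and 87 lower in SHMT2, against 6.25% of all regions tested. The median difference over the distal regions was 0.00124 points, with 5% of them under −8.99 and 5% over 6.72 points. On simulated calls at the real depths, the model found 37 of 100 changes of 20 points and 97 of 100 changes of 40 points among 17829 regions. The changed regions were drawn from all covered H3K4me3 regions at intermediate levels, above 5%, and the same spread was used for all libraries. Distal regions had a median level of 1.92%, so these counts do not give the power for them.

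The 6 libraries did not overlap between the groups in 214 of 2247 distal regions (9.52%), beside 9.16% of all regions. With a difference of 10 points as well, 25 of the 2247 were higher in SHMT2 and 13 lower, beside 85 (0.477%) and 37 (0.208%) of all 17829 regions. Both shares were larger among the distal regions. Levels between 10% and 50% were found in 20.03% of the covered distal regions and 10.5% of all covered regions; the part of this in the counts was not tested. Of the 25, 21 had no start listed, and they rested on a median of 6 cytosines. Leaving out 1 library moved these counts. Higher and lower counts were 67 and 94 when SHMT2 replicate 3 was left out, and 46 and 61 for vector replicate 1. They were 34 and 28 for vector replicate 3, and 27 and 26 for SHMT2 replicate 1. A group of 2 libraries overlaps less easily than one of 3.

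SHMT2 replicate 2 stood apart. It lay 10 points or more below all 5 other libraries in 126 distal regions and above them in 57, whereas each of the other libraries did so in at most 13 and 34. Without it, the counts of regions apart by 10 points were 34 higher and 10 lower.

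Rab10os had the smallest p of all distal regions. Its region (chr12:3234877-3236460), 10968 bp from Rab10, a small GTPase, stood at 6.25%, 4.45% and 9.51% in vector and at 33.8%, 45.3% and 32.8% in SHMT2, over 28 cytosines. The groups were far apart, at 6.73% ± 2.56 and 37.3% ± 6.94 (SD, n = 3 each). The difference of 30.6 points had a p of 0.000235 by the moderated binomial model and an adjusted p of 0.554, and it ran from 26.6 to 32.8 points when each library was left out. The Rab10os transcript overlapped between the groups: vector libraries had 6.52, 11.3 and 12.2 TPM and SHMT2 libraries 10.3, 7.59 and 7.68 TPM. The region had H3K4me3 in all 5 libraries, at percentiles of 66.8 and 54.97 in vector and 69.0, 59.8 and 62.1 in SHMT2.

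The other regions with the smallest p had small differences. Pcgf5, a Polycomb ring finger protein (chr19:36410133-36410932), and the adiponectin receptor gene Adipor2 (chr6:119388800-119389685) were at 0% in all vector libraries and at 0.302% to 0.398% and 0.233% to 0.690% in SHMT2. Near Pds5a (chr5:65724477-65725289), Gm4832 (chr17:88112086-88113238) and the metallothionein gene Mt1 (chr8:94190833-94191883), all SHMT2 libraries were at 0%, and vector libraries at 0.240% to 0.752%, 1.01% to 2.83% and 1.75% to 9.09%. The region near Mt1 rested on 3 cytosines and as few as 32 calls in a library, and that near Pds5a on 5 and 192. At coverage of at least 20 the difference near Pds5a was −0.227 instead of −0.486 points, and the region near Mt1 had no value. Adjusted p was 0.554 to 0.592 for these 5 regions in the moderated binomial model.

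Among regions whose groups did not overlap, Rab10os had the second largest rise. The regions that follow were chosen after their values were seen. The largest rise, of 48.3 points, was at a region 57707 bp from Usp46 (chr5:74126118-74127124, 6 cytosines). It stood at 43.4%, 18.9% and 13.98% in vector and at 72.3%, 82.6% and 66.3% in SHMT2. A region in Cep85, a centrosomal protein (chr4:134159734-134161482, 5 cytosines), stood at 33.96%, 37.5% and 39.8%, and at 89.5%, 48.8% and 61.0% with SHMT2. A region 82599 bp from Cd24a, which encodes the heat-stable antigen of B cells (chr10:43666864-43668467, 5 cytosines), stood at 47.7%, 57.8% and 55.2%, and at 87.2%, 80.3% and 76.2%. All 3 were taken from the regions whose groups did not overlap, so that separation follows from the choice. Their adjusted p in the moderated binomial model was 0.623, 0.788 and 0.695. The largest falls of this kind were lowest in SHMT2 replicate 2. In Rora, a nuclear receptor (chr9:69378719-69379531), vector libraries had 58.8%, 67.7% and 59.5% and SHMT2 libraries 45.7%, 18.2% and 56.0%. In Cdc42bpb, a Cdc42-dependent kinase (chr12:111324501-111325239), they had 56.0%, 51.4% and 54.6%, and 33.3%, 13.8% and 49.1%.

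**Figure D5:**
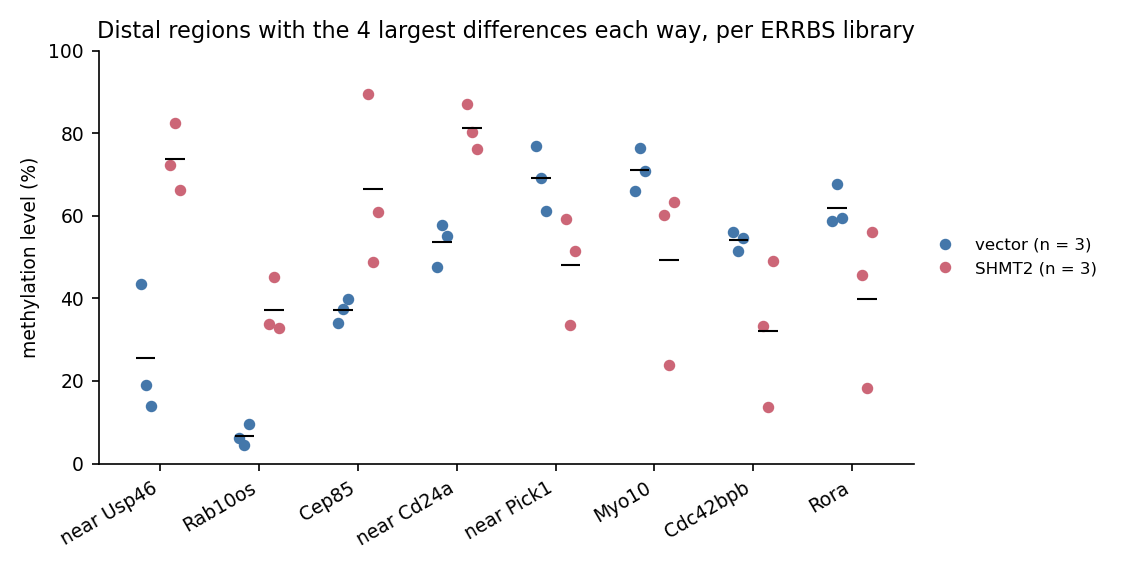
Methylation level, on the y axis in percent, of the distal H3K4me3 regions with the 4 largest differences in each direction among those whose groups do not overlap, per ERRBS library, leaving out chromosome 18. Points are libraries, 3 per group, and lines the group means. Regions are named by the gene that holds them, by their lncRNA, or by the nearest gene. At Rab10os the vector libraries lie at 4.45% to 9.51% and the SHMT2 libraries at 32.8% to 45.3%. In the 3 regions on the right, 1 SHMT2 library lies far below the others.

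Genes that hold a distal region were broadly expressed. Of 2136, 2097 were found in the table of TPM and 1673 (79.8%) had a mean of at least 1 TPM. Their median was 13.98 TPM, against 1.84 TPM over all protein-coding autosomal genes. Between SHMT2 and vector, limma on log2(TPM + 1) called 0 of the 1673 at an adjusted p under 0.05, and 0 of all 11117 genes tested (0%). At an unadjusted p under 0.05 there were 210 (12.6%), 79 higher and 131 lower, beside 16.7% of all genes, of which 1258 were higher and 600 lower. Without vector replicate 1, limma called 106 of the 1673 (6.34%), 40 higher and 66 lower, beside 7.6% of all genes. The vector libraries that remain in that fit are those with high erythroid markers, with means of 6.29 and 4.46 where replicate 1 had 1.99. Their myeloid means were 5.48 and 5.46, where replicate 1 had 3.604. The part of other cells in these calls was not tested. In bulk RNA, fewer cells of a type and less RNA per cell cannot be told apart.

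The genes with the smallest p moved by under 1 on the log2 scale. Psph, the phosphatase of the last step of serine synthesis, holds a region at chr5:129778596-129779754. Vector libraries had 11.3, 10.2 and 11.4 TPM, and SHMT2 libraries 17.3, 16.0 and 16.4 TPM. All SHMT2 libraries were above all vector libraries, with a log2 fold change of 0.55 (SE 0.09) and a limma adjusted p of 0.204. The gene Dpy30, whose product belongs to the complexes that methylate H3K4, with a region at an internal start (chr17:74315454-74317159), stood at 18.04, 17.6 and 14.6 TPM, and SHMT2 libraries at 27.99, 24.4 and 25.8 TPM. Rgs10, a regulator of G-protein signalling, was at 19.9 to 23.1 TPM in vector and 28.4 to 31.4 TPM in SHMT2. Lower in SHMT2 were Cmah, which makes the sialic acid Neu5Gc (53.6 to 57.4 against 36.2 to 41.3 TPM), the retinol dehydrogenase gene Rdh13 (14.2 to 17.9 against 9.64 to 10.2 TPM) and Atxn7, a subunit of the SAGA coactivator (25.3 to 26.9 against 19.2 to 20.03 TPM). None of the 6 passed, each at a limma adjusted p of 0.204.

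Of 10 listed microRNA hosts, 7 were found with expression values and 2 passed the filter on low values. Of these 2, limma called 0, and 1 had an unadjusted p under 0.05, beside 16.7% of all genes. Mir22hg was looked at as part of this list, and its sequence was printed because of its transcript level. Its region (chr11:75461562-75462803) had H3K4me3 percentiles of 81.9 and 79.96 in vector and 83.4, 76.2 and 77.1 in SHMT2, H3K4me1 in all 4 libraries, and a methylation level of 1.05%. Its transcript, listed under an older symbol, measured 8.60, 9.64 and 7.72 TPM in the vector libraries, against 2.64, 2.11 and 2.83 TPM in those with SHMT2. The groups did not overlap, and the log2 fold change was −1.45 (SE 0.14), at a limma adjusted p of 0.204. The lncRNA B230208H11Rik, which starts at a strong distal region (chr10:12921446-12923737), also did not overlap, at 0.559 to 1.77 TPM in vector and 0.124 to 0.352 TPM in SHMT2, but it fell under the filter on low values and was not tested. Methylation of the Mir22hg region overlapped between the groups, at 1.30%, 0.965% and 0.641% in vector and at 1.17%, 0.853% and 1.39% in SHMT2. Sesn1, with a region at its internal start, measured 110, 282 and 314 TPM in the vector libraries, against 86.5, 66.6 and 74.7 TPM. For Ssh2 the vector libraries gave 270, 351 and 459 TPM, against 241, 238 and 226 TPM. In both, vector replicate 1 lay nearest to the SHMT2 libraries. Their limma adjusted p was 0.206 and 0.237.

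Among the gene lists, limma called 0 of the 25 B lineage transcription factors, with 3 at an unadjusted p under 0.05, 0 of the 28 receptor signalling genes, with 5, and 0 of the 22 lymphoma genes that passed the filter on low values, with 4. Over all genes tested, 16.7% had an unadjusted p under 0.05. Their median log2 fold changes were 0.09, 0.17 and −0.18, beside 0.02 over all 11117 genes.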

How the data were processed

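Peaks of H3K4me3 and H3K4me1, ERRBS methylation calls and RNA-seq values of B220+ cells were used as deposited. Per the submitters' processing notes, STAR, BWA, MACS2, Bismark and Bowtie2 were used with mm10; versions, and whether input libraries served as control, are not given in the sources used here, and input libraries were not analysed here. Per the file headers, peaks carry the authors' fold enrichment (a ratio), −log10 p and q, a score and summit position. The deposited ERRBS tables give coverage (a count of calls) and the percent methylated for each cytosine; expression was deposited as TPM. Group and replicate follow the titles, which for 2 ERRBS libraries of SHMT2 differ from another label.

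The members and the gene lists were chosen with earlier results of these data known. Distances, starts and sequences come from RefSeq tables of GRCm38.p6. Methylation was computed over cytosines with a coverage of at least 10 in all 6 libraries, at least 3 per region, and tested by a quasi-binomial model with a moderated dispersion (limma 3.58.1, R 4.3.3; two-sided); tables were made with pandas 2.3.3 and scipy 1.17.1. The model was tested on simulated data. Expression was tested by limma on log2(TPM + 1) where the mean reached 1 TPM, so fold changes of low genes are understated. Regions named are the 8 strongest inside and between genes, the 4 highest in methylation and 4 of the 11 tied lowest. Also named are the 3 with the smallest p each way, those at microRNA and other non-coding genes, and the strongest of each list. The 3 host genes with the smallest p each way are named as well. Alternatives changed the distance, width, merging, peak and coverage limits, the test and each library in turn.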

Additional observations from a re-analysis of the deposited data

How the results depend on the processing

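Leaving out each library in turn gave 7183 to 7892 distal regions, 53.5% to 53.8% of them inside genes, 69.9% to 81.1% with H3K4me1 in all libraries left (81.1% without vector replicate 5 of H3K4me1) and a median methylation of 1.87% to 2.14%. The number of regions was 3605 under 1 kb of width and 4351 with peaks of a −log10 q of at least 10. The share inside genes was 55.4% at 2 kb from gene ends, 52.2% at 10 kb, 62.9% with the ends of every annotated gene kept away, 50.2% under 1 kb of width, 51.4% with gaps of up to 500 bp closed, 52.1% at the stricter q and 51.4% with peaks over at least 50% of the region. The share with H3K4me1 was 73.0% away from every annotated gene, 58.3% under 1 kb of width, 68.0% with H3K4me3 peaks over at least 50% of the region, 54.1% with H3K4me1 over at least 50%, 7.66% at an H3K4me1 −log10 q of at least 5 and 75.03% with 1 kb added on each side. Median methylation was 1.67% at 2 kb, 2.36% at 10 kb, 2.41% away from every gene, 2.55% under 1 kb of width, 2.61% with gaps closed, 1.21% at the stricter q, 1.37% with peaks over at least 50%, 1.63% at a coverage of at least 20 and 1.53% with at least 5 cytosines. The cause of these shifts was not tested beyond the change in regions kept.

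Fisher's exact test on calls pooled over libraries, which ignores the spread between them, called 145 of 2247 distal regions, beside 490 of all 17829 regions. Leaving out each ERRBS library gave 0 calls by the moderated model, and each RNA library 0 to 106 host genes. The 106 of 1673 were called without vector replicate 1, beside 845 of all 11117 genes. With the replicate number as a block, the model called 0 distal regions and limma 0 host genes. In the blocked model of methylation, 48 of 2236 distal regions had an adjusted p under 0.05, against 0 without the block. All 48 had differences under 10 points, and the smallest adjusted p of the model was 0.0012. The share over all H3K4me3 regions in the blocked model is not given here, so the 48 are not read as particular to distal regions. Same-numbered libraries did not deviate together (r of −0.106, −0.348 and 0.0418 for ERRBS and −0.417, −0.332 and −0.0578 for RNA), so the numbers were not taken as pairs. The alternatives without the 5S regions, of the distance searched at outer ends, and of libraries left out at single regions were chosen after seeing the data.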
